A study of Mus musculus with 6 samples.

Results

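The genes described here are the 6 tetraspanins of the TspanC8 subfamily (Tspan5, Tspan10, Tspan14, Tspan15, Tspan17 and Tspan33), the membrane protease Adam10 that they bind, and its closest relative Adam17. All 8 were found by symbol among the 44788 genes of the count table, and 7 of them had enough reads to be tested. Tspan15 was chosen by its fitted difference and p in the agonist comparison of these same libraries, so its values there are given as a description without a test. The other 7 were taken by family, as the remaining partners of ADAM10 and its relative.

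The libraries came from scraped endometrium of outbred ICR mice on day 4 of pregnancy. All mice had been given tamoxifen by mouth as newborns, 2.7 µmol/kg on days 2 to 5 after birth, which induces adenomyosis, so both groups carry that exposure and no library comes from mice without it. After 75 days, the agonist group received the GnRH agonist Decapetyl, 1.5 µg per 100 g of body weight a day on days 3 to 9 of estrus, and the group without agonist received solvent. Mating followed 4 weeks later. Each group is represented by 3 libraries, and the labels leave unsaid which of the 8 mice per group a library came from, or whether mice were pooled, and p-values therefore reflect only how these libraries vary, which may be technical.

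ADAM10 and ADAM17 are sheddases, membrane-bound metalloproteases that cut the outer part off other membrane proteins. ADAM10 cleaves Notch receptors, cadherins and many adhesion molecules, and ADAM17 releases tumour necrosis factor and ligands of the EGF receptor. ADAM10 leaves the endoplasmic reticulum with a TspanC8 tetraspanin, a small protein with 4 membrane spans whose subfamily is named for the 8 cysteines of its large outer loop, and the tetraspanin it is paired with affects where it goes and which substrates it cuts. ADAM17 is carried by the iRhom proteins instead. In the uterus before implantation, adhesion proteins and growth factors of the epithelial surface are among the proteins such enzymes can cut.

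Tspan15, the TspanC8 protein known for directing ADAM10 to cadherins, lies on chromosome 10, 62185396 to 62231251 (GRCm38, reverse strand), and is annotated as protein-coding. Its level was 3.02, 4.35 and 2.48 CPM (counts scaled to library size) in libraries 1 to 3 without agonist, from 40, 50 and 27 reads. With agonist it was 15.2, 27.4 and 20.8 CPM, from 190, 403 and 270 reads. All 3 agonist libraries lay above all 3 others, and the lowest of them was 3.50 times the highest without agonist. The means were 21.1 ± 6.07 and 3.28 ± 0.963 CPM (SD, n = 3 each), a 6.44-fold difference. Within each group the libraries spread 1.80-fold with agonist and 1.75-fold without. By fitted log2 fold change Tspan15 ranked 51 among the 16581 genes tested and 20 among the 12875 with a mean of at least 5 CPM. It ranked 1 among the 29 tetraspanins tested. Since Tspan15 was chosen by this same difference, high ranks follow from the choice and are given as a description.

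The sequence upstream of Tspan15 is shown beside that of Tspan14, since Tspan15 is the member whose libraries separated and Tspan14 is the most abundant member, whose libraries overlapped. Both come from RefSeq (GRCm38.p6), read 5′ to 3′ on the gene's own strand, from 250 bases before the RefSeq start to the nearest annotated exon or the start. Capitals mark a CCAAT box, here read as ATTGG on the other strand, in Tspan15, and GC boxes (GGGCGG, or CCGCCC on the other strand) in Tspan14. The Tspan15 stretch is chr10:62231252-62231468 and the Tspan14 stretch chr14:40966897-40967146, both on the reverse strand.
Tspan15: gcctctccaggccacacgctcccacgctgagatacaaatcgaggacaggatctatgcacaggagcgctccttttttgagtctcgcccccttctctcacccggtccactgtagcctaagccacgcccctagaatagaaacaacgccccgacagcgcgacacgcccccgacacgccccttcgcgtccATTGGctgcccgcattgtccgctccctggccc
Tspan14: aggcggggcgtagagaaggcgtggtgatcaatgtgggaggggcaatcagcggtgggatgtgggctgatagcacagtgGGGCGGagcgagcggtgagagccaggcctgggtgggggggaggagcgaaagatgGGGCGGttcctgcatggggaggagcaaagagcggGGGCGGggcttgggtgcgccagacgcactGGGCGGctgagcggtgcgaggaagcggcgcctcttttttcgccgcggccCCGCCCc
The 300-base windows around these starts held 29 and 33 CpG dinucleotides, against a median of 7 over 32851 RefSeq windows of the same length. Searched on both strands, the Tspan15 window held 1 CCAAT (37.4% of all windows hold it), 65 bases before the start. It held 1 AP-1 site, TGANTCA (7.81% of windows), beginning 12 bases before the start, in a part that GENCODE annotates as exon and that is not printed. GGGCGG (35.7% of windows) did not occur in it, whereas the Tspan14 window held 6. Neither window held GGTCA, the core of estrogen receptor sites (40.5%), or the full palindromic estrogen response element that contains it (0.0700%). The core of progesterone receptor sites, TGTTCT (19.0%), did not occur in these windows. TATAAA (13.6%), TGGGAA (25.6%), the core of the site of the Notch effector RBPJ, and CACGTG (7.15%) did not occur in them either. These matches describe letters only. RefSeq lists a second Tspan14 start, whose window held 3 CpG and 1 TGTTCT.

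**Figure D1:**
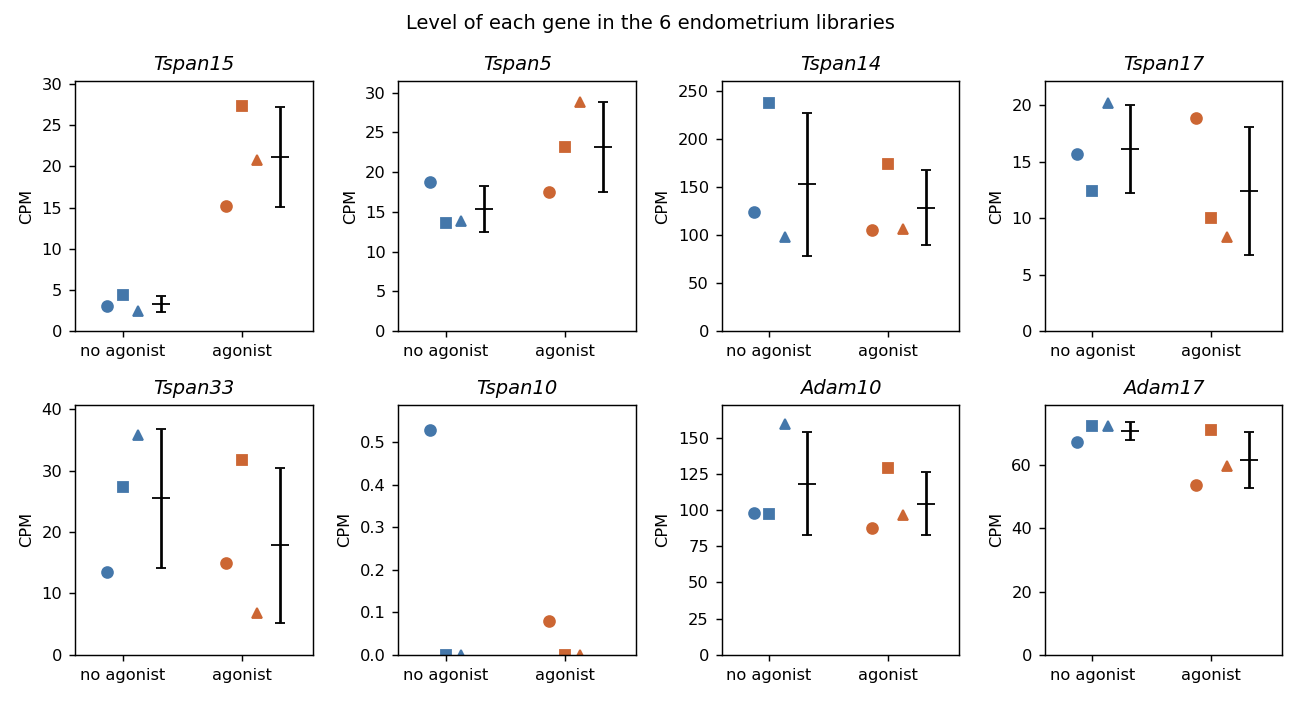
Level of each of the 8 genes in CPM (vertical axes, from 0, each panel with its own range) in the libraries without agonist (blue) and with it (orange), with circles, squares and triangles for libraries 1, 2 and 3 of a group. Bars give the mean ± SD of 3 libraries, not drawn for Tspan10. For Tspan15 the 2 groups lie apart, and for the other 7 genes they overlap.

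In edgeR's quasi-likelihood fit over all genes, 0 of the other 6 tested members had a Benjamini-Hochberg adjusted p under 0.05, and 0 of 6 had an unadjusted p under 0.05. Across all genes tested, 0% were called at the adjusted threshold and 9.26% had such an unadjusted p. DESeq2, which called 2.35% of all genes, and limma-voom also called 0 of these 6. The libraries separated by group for 0 of these 6 genes, against 14.5% of all genes tested (6.94% with the agonist group higher and 7.61% with it lower). They separated for Tspan15, which was chosen on this contrast.

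Tspan5 and Tspan17 are close relatives within the subfamily, and Tspan5 is known for promoting ADAM10's cleavage of Notch. Tspan5 (chromosome 3, 138742195 to 138907905) measured 18.7, 13.6 and 13.9 CPM without agonist and 17.5, 23.2 and 28.9 CPM with it. Agonist library 1 lay below no-agonist library 1, so the groups overlapped, though the other agonist libraries were above all of the group without agonist. The group means were 23.2 ± 5.68 and 15.4 ± 2.89 CPM, 1.51-fold apart (log2 fold change 0.59 ± 0.27 SE, adjusted p = 0.566 by edgeR's quasi-likelihood test). Tspan17 (chromosome 13, 54789377 to 54796776) measured 15.7, 12.4 and 20.2 CPM without agonist. With agonist it measured 18.9, 9.98 and 8.31 CPM, so that library 1 stood with the other group and libraries 2 and 3 lay below it. Its log2 fold change was -0.38 ± 0.38 (adjusted p = 0.822, edgeR), and it ran from -0.81 without agonist library 1 to -0.16 without agonist library 3.

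Tspan14, a TspanC8 protein of many cell types including endothelium and blood cells, lies on chromosome 14, 40906445 to 40966807. It measured 124, 238 and 97.6 CPM without agonist and 105, 174 and 107 CPM with it. Library 2 was the highest of each group, by a numbering that pairs no libraries across groups, and the groups overlapped throughout. Its log2 fold change was -0.25 ± 0.37 (adjusted p = 0.890, edgeR), and it ran from -0.53 without agonist library 2 to 0.22 without no-agonist library 2.

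Tspan33, which is known from red blood cell precursors and activated B cells, lies on chromosome 6, 29694222 to 29718559. It measured 13.4, 27.3 and 35.8 CPM without agonist and 14.9, 31.6 and 6.85 CPM with it. It varied most among the tested members other than Tspan15, 5.23-fold between the lowest and the highest library, and both groups held high and low libraries. Its log2 fold change was -0.52 ± 0.57 (adjusted p = 0.844, edgeR), and it ran from -1.23 without agonist library 2 to -0.13 without agonist library 3. The summed red blood cell markers, of which Hbb-b1 and Hbb-b2 were at 0 in all libraries, ran from 120 to 1883 CPM. The lowest of these sums was in no-agonist library 3, where Tspan33 was highest, and the highest was in agonist library 3, where Tspan33 was lowest. The 5 B cell markers together came to between 4.96 and 14.9 CPM in each library. Their part in the level of Tspan33 was not tested.

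Tspan10 (chromosome 11, 120442644 to 120446950), a TspanC8 member known from eye and pigment tissue, had 8 reads in all. Of these, 7 were in no-agonist library 1 and 1 in agonist library 1, and the other 4 libraries had 0. A count of 0 allows up to 3 counts, or 0.204 to 0.276 CPM in these libraries. It was not tested, and no fold is given.

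Over all 6 libraries, both proteases had a narrower range than each of the tested TspanC8 genes. Adam10 (chromosome 9, 70678997 to 70780229) measured 97.7, 97.2 and 159 CPM without agonist and 87.7, 129 and 96.5 CPM with it. No-agonist library 3 was the highest, and the groups overlapped. The log2 fold change was -0.18 ± 0.27 (adjusted p = 0.895, edgeR), and it ran from -0.36 without agonist library 2 to 0.11 without no-agonist library 3. Adam17 (chromosome 12, 21323509 to 21373632) measured 67.4, 72.5 and 72.2 CPM without agonist and 53.8, 71.1 and 59.6 CPM with it. Agonist libraries 1 and 3 lay below the group without agonist, and agonist library 2 lay within it. The log2 fold change was -0.20 ± 0.18 (adjusted p = 0.794, edgeR), and the 6 libraries lay within 1.35-fold of each other, the narrowest range of the 7 tested members. The span of Adam17 overlaps that of the gene Iah1 on the opposite strand. Since no strand setting is given, reads from any exon sequence they share could not be told apart. How far their exons overlap was not measured. The ratio of Adam10 to Adam17 per kilobase was 2.42 ± 0.684 without agonist and 2.46 ± 0.162 with it.

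Levels of different genes were compared per length, as CPM per kilobase of annotated exon (mean ± SD of all 6 libraries). Tspan14 was highest at 53.1 ± 20.7, above Adam10 at 22.6 ± 5.58 and Adam17 at 9.24 ± 1.08. Both of those steps held in 6 of 6 libraries without overlap of the ranges. Tspan17 followed at 8.60 ± 2.90, Tspan33 at 4.17 ± 2.22 and Tspan5 at 2.61 ± 0.794. Among these, neighbours in the order overlapped, with Adam17 above Tspan17 in 3 of 6 libraries, Tspan17 above Tspan33 in 5 of 6 and Tspan33 above Tspan5 in 5 of 6. Tspan15 differed in its place by group, at 0.401 ± 0.118 without agonist, where Tspan5 measured 2.08 ± 0.391, and at 2.58 ± 0.742 with it, where Tspan5 measured 3.14 ± 0.769. In agonist library 2 Tspan15 was above Tspan5. Tspan10 came last at 0.0563 ± 0.117. With the longest annotated transcript as the length, Tspan15 and Tspan5 changed places in the mean of all 6 libraries, and the other 6 kept theirs. By that length Tspan15 was still below Tspan5 in each library without agonist, and above it in each library with agonist. The agonist means were then 5.81 ± 1.67 for Tspan15, 3.48 ± 0.854 for Tspan5 and 5.00 ± 3.56 for Tspan33.

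**Figure D2:**
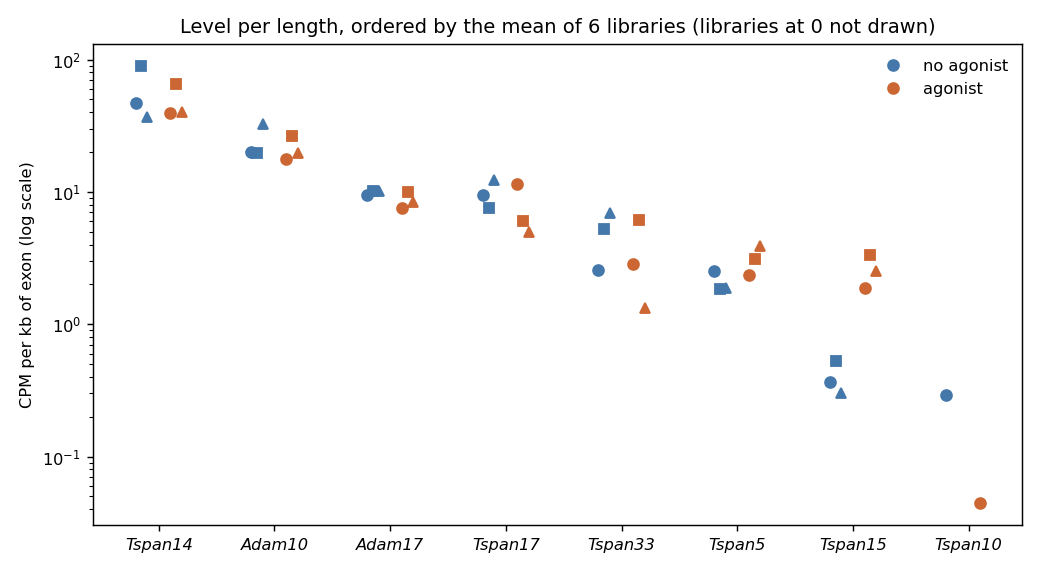
CPM per kilobase of exon (vertical axis, log scale) of each gene (horizontal axis, ordered by the mean of the 6 libraries), one point per library, blue without agonist and orange with it, shapes as libraries 1, 2 and 3. Tspan14 is above Adam10 in 6 of 6 libraries, and Tspan15 is 0.650 to 1.07 times Tspan5 in the orange libraries and 0.146 to 0.289 times in the blue ones.

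Because TspanC8 proteins share ADAM10 as a partner, the messages were also summed. The sum of the 6 per kilobase was 75.0 ± 25.9 without agonist and 65.1 ± 16.6 with it, and without Tspan15 it was 74.6 ± 25.8 and 62.5 ± 16.0, ranges that overlapped in both cases. Divided by Adam10 per kilobase, the sum was 3.40 ± 1.77 and 3.05 ± 0.304. Tspan14 made up 74.8 ± 11.1% of the sum without agonist and 74.0 ± 5.18% with it. Tspan15 made up 0.595, 0.507 and 0.521% without agonist and 3.21, 3.98 and 4.78% with it. With the longest transcript as the length, a setting chosen after the data were seen, the Tspan15 share was 1.11 ± 0.104% and 7.90 ± 1.52%. As a share of TspanC8 reads without regard to length it ran from 1.46% (95% exact binomial interval 0.963 to 2.12%) to 1.72% (1.23 to 2.34%) without agonist. With agonist it ran from 8.90% (7.72 to 10.2%) to 12.1% (10.8 to 13.5%). These intervals cover counting error only, and since Tspan15 was chosen by this contrast, the gap between the groups is a description. Tspan14 was the largest part of the sum in all 6 libraries, at 63.4 to 85.6%.

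**Figure D3:**
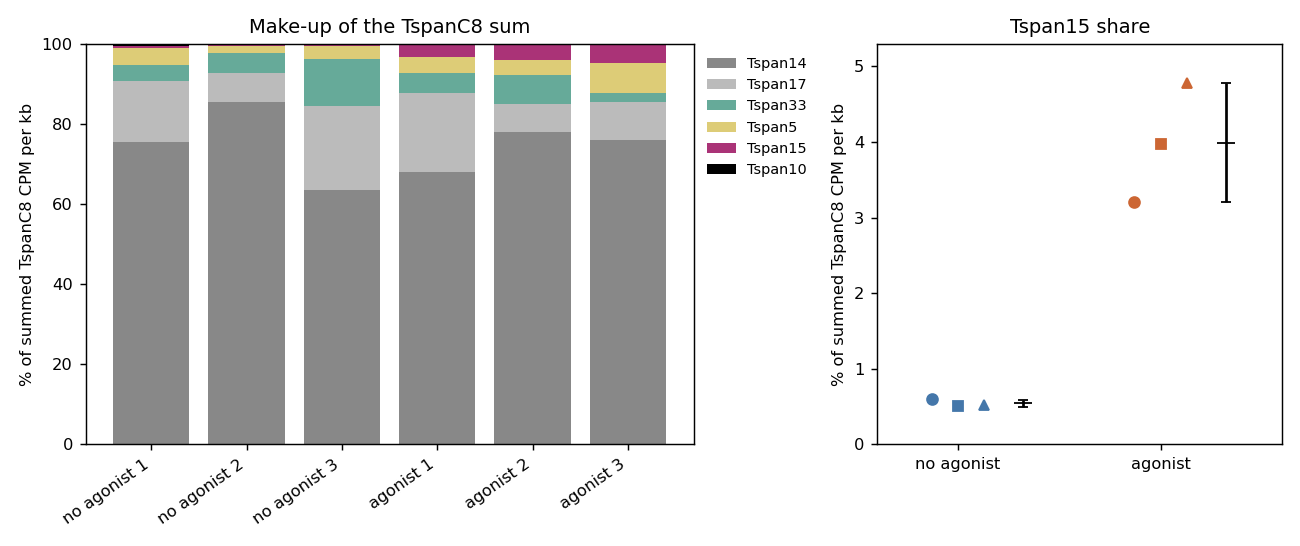
Left, share of each TspanC8 gene in the summed CPM per kilobase (vertical axis, %) in each library (horizontal axis). Right, the Tspan15 share alone on its own scale, one point per library with the mean ± SD of each group, between 0.507 and 0.595% without agonist and between 3.21 and 4.78% with it.

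Over the 6 libraries, the correlation of log2 CPM with Tspan15 was r = 0.77 for Tspan5, 0.020 for Tspan14, -0.64 for Tspan17, -0.34 for Tspan33, -0.26 for Adam10 and -0.49 for Adam17. These points share the 2 groups. After the group means were taken away, r was 0.26 for Tspan5, 0.91 for Tspan14, -0.81 for Tspan17, 0.25 for Tspan33, -0.028 for Adam10 and 0.73 for Adam17. Library 2 held the highest level of both Tspan14 and Tspan15 in each group, though the numbers give only the order within a group and pair no libraries. With 6 libraries these are descriptions only.

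Among 12874 genes with a mean of at least 5 CPM, the patterns most like that of Tspan15 by Pearson's r over the 6 libraries were those of Lancl2 (r = 0.98; 23.7 ± 3.20 CPM with agonist and 14.8 ± 0.845 without), Nipsnap1, Mkl2, Pla2g5 and Unc13d. Nipsnap1, a mitochondrial protein, measured 130 ± 13.1 and 61.6 ± 12.3 CPM, and Mkl2, a coactivator of serum response factor, 67.8 ± 4.50 and 53.1 ± 2.83 CPM. Pla2g5, a secreted phospholipase, measured 20.8 ± 9.62 and 2.35 ± 0.687 CPM, and Unc13d, a factor of granule release, 13.7 ± 1.01 and 7.15 ± 0.992 CPM. The most opposite patterns were those of Fam3a (r = -0.99; 42.5 ± 2.09 CPM with agonist and 69.3 ± 3.32 without), Samd12 (6.74 ± 0.826 and 15.5 ± 2.33 CPM) and Tollip, an adapter of Toll-like receptor signalling (52.2 ± 2.42 and 64.1 ± 2.22 CPM). Likeness to Tspan15 selects genes that differ between the groups.

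Tetraspanins outside the subfamily gave no called gene, with 13 of 24 tested members higher and 11 lower and a median log2 fold change of 0.056, against 0.018 over all genes tested. That median ran from -0.0024 without no-agonist library 2 to 0.14 without no-agonist library 3. At an unadjusted p under 0.05, 0 were higher and 3 lower, against 4.17% and 5.09% of all genes. Tspan1, an epithelial tetraspanin, measured 400, 429 and 427 CPM without agonist and 137, 243 and 152 CPM with it, so all 3 agonist libraries lay below the others (log2 fold change -1.24 ± 0.26, adjusted p = 0.260, edgeR). Tspan8, another tetraspanin of epithelia, measured 222 ± 86.6 against 404 ± 90.0 CPM and Cd81, which is widely expressed, 331 ± 40.5 against 473 ± 56.2 CPM, with adjusted p = 0.513 and adjusted p = 0.526 (edgeR). Their agonist libraries also lay below the others. Of the 24 tested, the libraries separated for 5, against 14.5% of all genes. By mean level per kilobase among the 31 tetraspanins, Tspan14 ranked 6 without agonist and 7 with it, and Tspan15 ranked 27 and 24. Over all 6 libraries Tspan8, Cd9 and Cd81 were at the top.

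Of the other ADAM genes, 7 of the 10 tested lay lower and 3 higher, with a median log2 fold change of -0.45 and 0 called. Adam9, a widely expressed catalytic relative of ADAM10, measured 114, 118 and 162 CPM without agonist and 63.9, 83.4 and 57.2 CPM with it. Its groups did not overlap (log2 fold change -0.94 ± 0.23, adjusted p = 0.314, edgeR). Adam28, a relative found in epithelia and lymphocytes, measured 18.9 ± 2.12 against 30.0 ± 8.00 CPM (adjusted p = 0.488, edgeR), also without overlap. These 2 of the 10 tested had an unadjusted p under 0.05 and separated libraries, against 9.26% and 14.5% of all genes. Without no-agonist library 3 the median of this list was -0.033.

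Regulators of both proteases comprised the iRhoms, the convertases that remove the inhibitory prodomain, inhibitors and a trafficking factor. Of 12 tested, 3 were higher and 9 lower, with 0 called and a median log2 fold change of -0.27. The convertase Pcsk6 measured 21.0 ± 7.10 against 34.7 ± 5.82 CPM (adjusted p = 0.503, edgeR). It was the 1 of 12 with an unadjusted p under 0.05, against 9.26% of all genes tested. With library totals in place of TMM factors the median was -0.098, and it was -0.11 without no-agonist library 3 and -0.17 without no-agonist library 2. Gamma-secretase cuts the membrane stub that ADAM10 leaves. Of its 7 genes 3 were higher and 4 lower, with 0 called and a median of -0.25 (-0.091 with library totals, -0.14 without agonist library 3).

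Known ADAM10 substrates were higher in 16 of 29 tested members and lower in 13, with 0 called and a median log2 fold change of 0.16. The median ran from 0.067 without agonist library 3 to 0.37 without no-agonist library 1. At an unadjusted p under 0.05, 2 were higher and 3 lower, against 4.17% and 5.09% of all genes. Cdh2, neural cadherin, measured 2.34, 0.957 and 2.02 CPM without agonist and 3.37, 4.89 and 10.6 CPM with it (log2 fold change 1.82 ± 0.57, adjusted p = 0.401, edgeR). Cdh5, the cadherin of endothelium, measured 60.2 ± 24.5 against 33.6 ± 8.23 CPM (adjusted p = 0.500, edgeR). For both cadherins the agonist libraries lay above the others. Cdh5 and the epithelial cadherin Cdh1 are also among the cell type markers used below, so those results are not separate from these. Alcam, an adhesion molecule, measured 102 ± 18.7 against 206 ± 78.4 CPM (adjusted p = 0.375), the receptor kinase Ephb2 69.7 ± 4.57 against 98.8 ± 14.5 CPM (adjusted p = 0.481) and the interleukin-6 receptor Il6ra, which ADAM17 cuts too, 6.33 ± 1.37 against 12.0 ± 4.14 CPM (adjusted p = 0.505, all by edgeR). For these 3 genes the agonist libraries lay below the others. Of the 29 tested, the libraries separated for 8, against 14.5% of all genes. Chosen after their values were seen, the main cadherin of epithelium, Cdh1, measured 436 ± 93.3 against 571 ± 104 CPM and Notch1 measured 104 ± 13.6 against 86.6 ± 7.66 CPM, neither past the threshold (adjusted p = 0.715 and adjusted p = 0.722, edgeR).

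Of the ADAM17 substrates, 2 of 11 tested were higher and 9 lower, with 0 called and a median log2 fold change of -0.31. The median moved to -0.70 when no-agonist library 2 was left out, to -0.56 when agonist library 1 was, and to -0.095 when no-agonist library 3 was. Leaving out agonist library 3 gave -0.10, leaving out agonist library 2 gave -0.19, and limma-voom gave -0.071. Beside Il6ra, the receptor Tnfrsf1b of tumour necrosis factor had an unadjusted p under 0.05. It measured 20.3 ± 8.24 against 45.1 ± 15.5 CPM without overlap (adjusted p = 0.406, edgeR). Of the 11 tested, 2 had an unadjusted p under 0.05, against 9.26% of all genes. The libraries separated for 4 of the 11, against 14.5% of all genes.

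**Figure D4:**
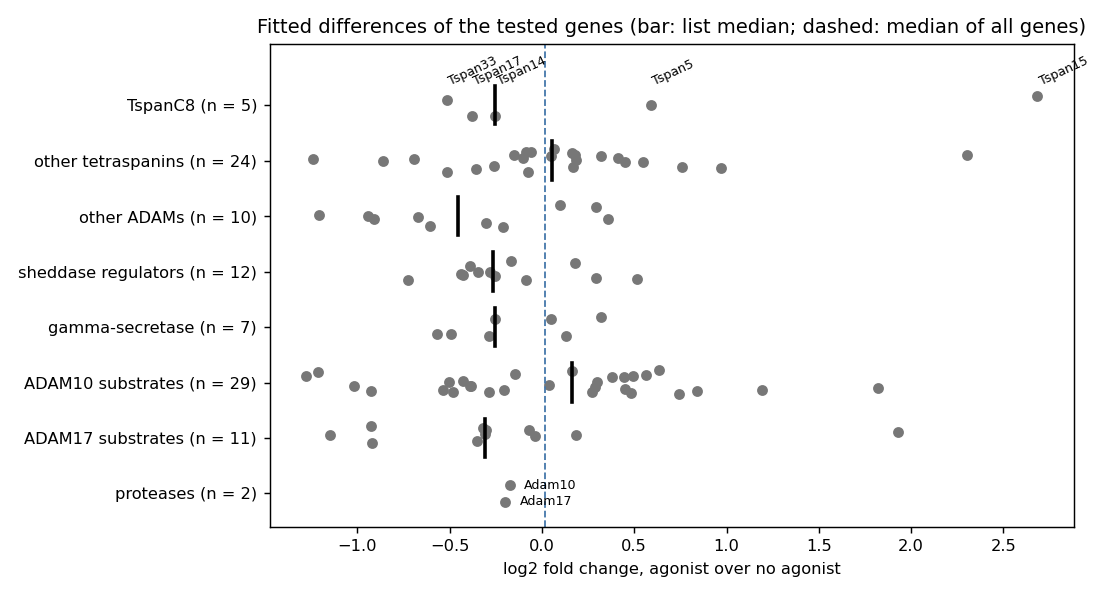
Fitted log2 fold change of agonist over no agonist (horizontal axis) for each tested gene (grey points, spread vertically for legibility) of the TspanC8 subfamily, the other lists and the proteases. Black bars give list medians and the dashed line the median of all genes, 0.018. Tspan15 lies at 2.68, and the other 4 TspanC8 genes between -0.52 and 0.59.

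Cell type markers moved between the same libraries. In a mixed tissue, fewer cells of a type and less RNA per cell cannot be told apart. The 12 epithelial markers summed to 8769, 13903 and 11460 CPM without agonist and to 7319, 6141 and 4843 CPM with it. This sum was lower in all 3 agonist libraries. Taken singly, all 12 had a lower fitted value, against 7925 of the 16581 genes tested. The libraries separated for 5 of the 12, against 7.61% of all genes in that direction, and overlapped for the rest. Epcam, for example, overlapped, at 470 ± 119 CPM with agonist and 575 ± 162 CPM without. The 8 endothelial markers together ran from 290 to 363 CPM without agonist and from 392 to 550 CPM with it. The 8 NK and T cell markers ran from 9.40 to 17.9 and from 23.8 to 39.5 CPM, and both sums were higher in all 3. In each of these 2 lists all 8 markers had a higher fitted value, against 8656 of the 16581 genes tested. The libraries separated for 2 of each 8, against 6.94% of all genes in that direction. Stromal markers (4429 to 7094 and 4427 to 5673 CPM), smooth muscle markers (7643 to 19462 and 2968 to 11931 CPM) and uterine gland markers (21.7 to 46.5 and 19.5 to 191 CPM) overlapped. The embryo markers Cdx2, Pou5f1 and Nanog were at 0 in every library, and the fourth, Eomes, which NK cells also express, reached at most 3.39 CPM. The labelled endometrium held epithelial and stromal markers at high levels beside those of muscle. Summed markers of macrophages (485 to 2525 CPM), fat cells (0 to 194 CPM), mesothelium (0.272 to 35.5 CPM), platelets (6.52 to 19.0 CPM), neutrophils (2.87 to 15.2 CPM) and ovary and oviduct (7.17 to 196 CPM) overlapped between the groups. Taken singly, all 8 macrophage markers had a lower fitted value with agonist, against 7925 of the 16581 genes tested. The libraries separated for 2 of these markers, against 7.61% of all genes in that direction. The 2 were Cd68 (19.6 ± 6.23 against 60.7 ± 23.2 CPM) and Cd14 (436 ± 212 against 1170 ± 722 CPM).

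Set against the sums of 5 of these cell types, Tspan15 separated the groups, and against gland markers it did not. Since Tspan15 was chosen by its difference between these groups, such separation largely follows from the choice. The ratios are given as a description and are no test of cell make-up. Per 1000 CPM of epithelial markers, Tspan15 measured 0.344, 0.313 and 0.216 CPM without agonist and 2.08, 4.46 and 4.29 CPM with it. These means were 12.4-fold apart, a fold widened by the epithelial sum itself being lower with agonist. The fold was 6.69 against stromal markers, 15.2 against smooth muscle markers, 4.27 against endothelial markers and 2.36 against NK and T cell markers, in each case with all agonist libraries above the others. Against uterine gland markers the libraries overlapped, with 114, 93.6 and 114 CPM without agonist and 782, 143 and 114 CPM with it. There the fold was 3.22, and 1.20 without agonist library 1. In agonist libraries 2 and 3 most of the gland sum came from Cxcl15 (82.2 and 69.8 CPM) and Aldh1a1 (72.0 and 90.2 CPM). In agonist library 1 these measured 1.36 and 8.66 CPM. The gland marker Foxa2 measured 13.9 ± 4.11 CPM without agonist and 14.5 ± 6.37 CPM with it, so the sum does not stand for all gland markers alike. Which cells held the Tspan15 message was not tested.

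**Figure D5:**
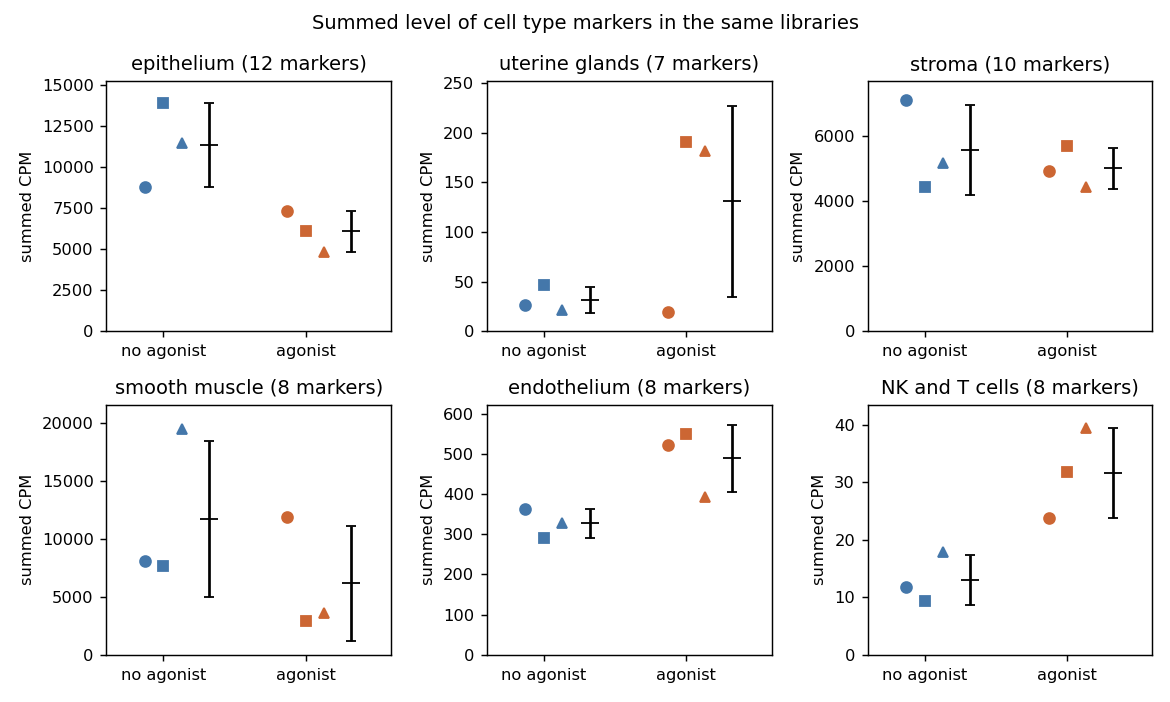
Summed CPM of the markers of 6 cell types (vertical axes, from 0) in the same libraries, colours and shapes as for the members, with the mean ± SD of each group. The groups lie apart for epithelium, endothelium and NK and T cells and overlap for glands, stroma and smooth muscle.

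The libraries held 11720958 to 14104266 counts. Ribosomal Rn18s-rs5 made up 3.31% of no-agonist library 2 and 1.94% of agonist library 1, and 0.254 to 0.369% of the others. Over all genes, edgeR called 0 higher and 0 lower at the adjusted threshold, and 691 and 844 genes had an unadjusted p under 0.05 in these directions. The adjusted calls were 139 and 251 by DESeq2 and 0 and 0 by limma-voom. Scaled by library totals in place of TMM factors, 1192 and 520 genes passed without adjustment, and the all-gene median log2 fold change was 0.18 in place of 0.018. Under that scaling Tspan15 had a log2 fold change of 2.85 against 2.68.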

How the data were processed

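The deposited table holds whole-number read counts per gene symbol, 1 column per library. Per the submitters' processing notes, the authors used the mouse build mm10 (GRCm38) and HTSeq 0.6.1. No aligner, annotation, strand setting or filter is named (not given in the sources used here), and reads that fit several genes could be lost or shared. Per the labels' protocols, RNA with an integrity number above 8.0 was sequenced single-end on an Ion Proton.

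Counts were tested with edgeR 4.0.16 (R 4.3.3): filterByExpr, TMM factors, quasi-likelihood F-test over all 6 libraries without covariates, Benjamini-Hochberg over 16581 genes. Standard errors are the log2 fold change divided by the root of F. DESeq2 1.42.0 and limma 3.58.1 (voom), other scalings and filters, and leaving out each library were alternatives. The test was tried on simulated data. CPM uses TMM-scaled library sizes. Lengths and coordinates (1-based) are from GENCODE M21, matched by symbol for 30997 of 44788 genes, and upstream sequences from RefSeq GRCm38.p6, matched for 8 of 8 members. The members and lists were chosen with earlier results of these data known. Besides the members, list genes with an unadjusted p under 0.05 were named, at most 6 per list, and the 5 most and 3 least similar to Tspan15 by r of log2 CPM (prior count 2). 1 gene that this rule names is not reported here.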

Additional observations from a re-analysis of the deposited data

How the results depend on the processing

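No paired analysis was possible because the labels give the groups no common replicate numbers, litter, batch or day. Over 13 alternatives the log2 fold change of Tspan15 kept its sign and ran from 2.45 to 2.94, the same range as when each library was left out. The count of genes past an adjusted p of 0.05 was 8 higher and 28 lower with no filter on low counts and 139 and 251 with DESeq2. When each library was left out it was 0 to 0 higher and 0 to 1 lower, the 1 gene without no-agonist library 2. Leaving out each library gave Tspan14 a log2 fold change of -0.53 to 0.22, reversed without no-agonist library 2, and Adam10 one of -0.36 to 0.11, reversed without no-agonist library 3. Adam17 ran from -0.32 to -0.10. The cause was not tested. At an unadjusted p under 0.05, 1054 genes were higher with no filter and 535 were lower without agonist library 3. Leaving out a library also raised the count of genes whose libraries separate from 2412 to between 3478 and 4976, since fewer samples have to separate, and that count was not recomputed for DESeq2 and limma-voom, which do not change the levels. No alternative brought 1 of the other 6 tested members past the adjusted threshold, and in 3 of the 13 alternatives 1 of them had an unadjusted p under 0.05. With library totals alone, fitted differences rose with the all-gene median. The log2 fold change was then 0.75 for Tspan5, -0.085 for Tspan14, -0.23 for Tspan17, -0.34 for Tspan33 and -0.032 for Adam17. When each library was left out, list medians ran from -0.39 to 0.22 for the TspanC8 genes, -0.67 to -0.033 for other ADAM genes, -0.35 to -0.11 for regulators, -0.25 to -0.14 for gamma-secretase, 0.067 to 0.37 for ADAM10 substrates and -0.70 to -0.095 for ADAM17 substrates. The median of ADAM10 substrates was 0.26 with no filter. Depth limits Tspan10, with 8 reads, most.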
